A study of Mus musculus with 8 samples.

Results

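The genes described here are 10 genes of the interleukin-1 (IL-1) family and of the NLRP3 inflammasome, taken from a fixed list of gene symbols: Il1a, Il1b, Il1rn, Il18, Il1r1, Il1r2, Il1rap, Nlrp3, Casp1 and Pycard. Of these, 9 were each measured by 1 probe set of their own among 19938 genes tested, and Il1r1, the signalling receptor, is not listed in the probe annotation used here and was not analysed. The cells were macrophages that thioglycollate, an irritant broth, draws into the peritoneal cavity of C57BL/6J mice, collected 5 days after the injection and then cultured in serum-containing DMEM. In 4 arrays the cells had been cultured with acetylated low-density lipoprotein (acLDL), a modified lipoprotein taken up through scavenger receptors, and in 4 arrays the cells were unloaded, without acLDL. The sample protocols give 20 µg/mL acLDL and 3 days of culture, whereas the series description gives 50 µg/mL and 2 days, so dose and time are not settled. The 4 arrays of a condition are described as independent biological replicates. The sources used here do not give the age or sex of the mice, nor which mice went into which culture.

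IL-1 alpha and IL-1 beta are cytokines that bind the same receptor, and that receptor recruits the accessory protein encoded by Il1rap to signal. The antagonist encoded by Il1rn occupies the receptor without signalling, and the type 2 receptor encoded by Il1r2 binds the cytokines as a decoy. IL-1 beta and IL-18 are made as precursors that caspase-1 cuts. Caspase-1, encoded by Casp1, is activated on the inflammasome, a complex in which the sensor NLRP3 binds the adaptor ASC, the product of Pycard. IL-1 alpha is active without this cut. In macrophages, NLRP3 and the precursor of IL-1 beta are known to be induced by inflammatory signals before the inflammasome assembles, and cholesterol crystals are a known activator of NLRP3.

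The promoter windows of the ligand genes Il1a and Il1b and of the antagonist gene Il1rn are shown because Il1a had the largest rise among these genes and Il1rn the largest fall, while Il1b, beside Il1a on chromosome 2, did not pass. In the RefSeq gene table of GRCm38.p6, 0 protein-coding genes start between Il1a and Il1b. Each window runs from 250 bases before to 50 bases after a RefSeq gene start, 5′ to 3′ on the strand of the gene. Of 3 windows of Il1rn, the first and the last along the chromosome are shown. Capitals mark matches, on either strand, to TATAAA (the TATA box) or to TGANTCA (an AP-1-like motif, which reads the same on both strands).
Il1a, GRCm38.p6 chr2:129309923-129310222, minus strand: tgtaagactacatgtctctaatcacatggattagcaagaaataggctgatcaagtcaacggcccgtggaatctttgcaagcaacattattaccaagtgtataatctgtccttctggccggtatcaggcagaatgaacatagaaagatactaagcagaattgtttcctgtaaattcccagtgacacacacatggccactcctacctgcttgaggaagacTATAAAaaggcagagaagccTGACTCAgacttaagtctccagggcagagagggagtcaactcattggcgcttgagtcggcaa
Il1b, GRCm38.p6 chr2:129371090-129371389, minus strand: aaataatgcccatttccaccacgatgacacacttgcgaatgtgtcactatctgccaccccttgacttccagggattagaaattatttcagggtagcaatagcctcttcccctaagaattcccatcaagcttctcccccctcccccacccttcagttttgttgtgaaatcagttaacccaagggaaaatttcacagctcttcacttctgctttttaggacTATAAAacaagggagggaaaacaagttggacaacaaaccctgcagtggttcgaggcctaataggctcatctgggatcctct
Il1rn, first window, GRCm38.p6 chr2:24336610-24336909, plus strand: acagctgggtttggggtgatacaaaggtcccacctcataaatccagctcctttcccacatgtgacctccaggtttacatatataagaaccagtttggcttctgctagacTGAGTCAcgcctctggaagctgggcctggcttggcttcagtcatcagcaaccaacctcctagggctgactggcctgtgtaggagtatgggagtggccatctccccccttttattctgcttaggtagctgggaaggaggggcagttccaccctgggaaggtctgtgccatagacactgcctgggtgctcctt
Il1rn, last window, GRCm38.p6 chr2:24345121-24345420, plus strand: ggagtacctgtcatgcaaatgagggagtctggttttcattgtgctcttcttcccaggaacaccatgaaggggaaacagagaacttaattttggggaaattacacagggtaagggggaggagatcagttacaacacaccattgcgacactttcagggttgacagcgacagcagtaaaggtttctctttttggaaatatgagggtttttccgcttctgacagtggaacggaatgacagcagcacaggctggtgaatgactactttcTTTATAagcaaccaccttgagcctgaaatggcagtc

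The Il1a and Il1b windows both held TATAAA on the strand of the gene, starting at positions -32 and -31 from the gene start. The Il1a window also held TGACTCA, starting at position -12, and the first Il1rn window held TGAGTCA at position -141. The last Il1rn window held TATAAA on the opposite strand, starting at position 15 after the start. Among all 32851 RefSeq promoter windows of this length, 13.6% held TATAAA and 7.81% held TGANTCA. A match describes letters in the window, and no binding was measured.

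Expression was read as deposited log2 values, which ran from 2.63 to 14.27 over the 8 arrays. As a gauge of background, the 95th percentile of the mean level of 1027 olfactory receptor genes, a family that works in smell, was 6.12 (log2). Il1a, Il1rn, Il1rap, Casp1 and Pycard lay above 6.12 in all 8 arrays, and Il1b, Il18, Il1r2 and Nlrp3 lay below it in all 8. The median of the olfactory receptor genes itself was 4.38 ± 0.02 in acLDL and 4.46 ± 0.04 in unloaded arrays (log2, SD, n = 4), a difference of -0.08 (two-sided exact permutation p = 0.0286, the smallest that 4 against 4 arrays allow, with a Benjamini-Hochberg value of 0.0572 over 2 measures per array). In bulk RNA of this kind, fewer cells that express a gene and less RNA per cell cannot be told apart.

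Expression with and without acLDL was compared for each gene with limma, and a gene was called at an adjusted p under 0.05, with Benjamini-Hochberg adjustment over all 19938 genes. Of the 9 measured genes, 3 rose (Il1a, Nlrp3 and Pycard), 2 fell (Il1rn and Il1r2) and 4 did not pass, so that 5 of 9 were called against 23.3% of all genes (12.9% higher, 10.5% lower). Of these only Il1a changed by at least 1.5-fold, as 2.03% of all genes did (1.33% upwards). Among all genes, 33.5% of those above 6.12 and 8.94% of those at or below it were called. Of the 5 measured members above 6.12, 3 were called, and Il1r2 and Nlrp3 were the called members below it. The groups did not overlap in 6 of the 9 genes, against 25.6% of all genes. The median log2 difference of the 9 genes was -0.15, beside -0.0031 for all genes, and the median absolute log2 difference was 0.21, beside 0.11.

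**Figure D1:**
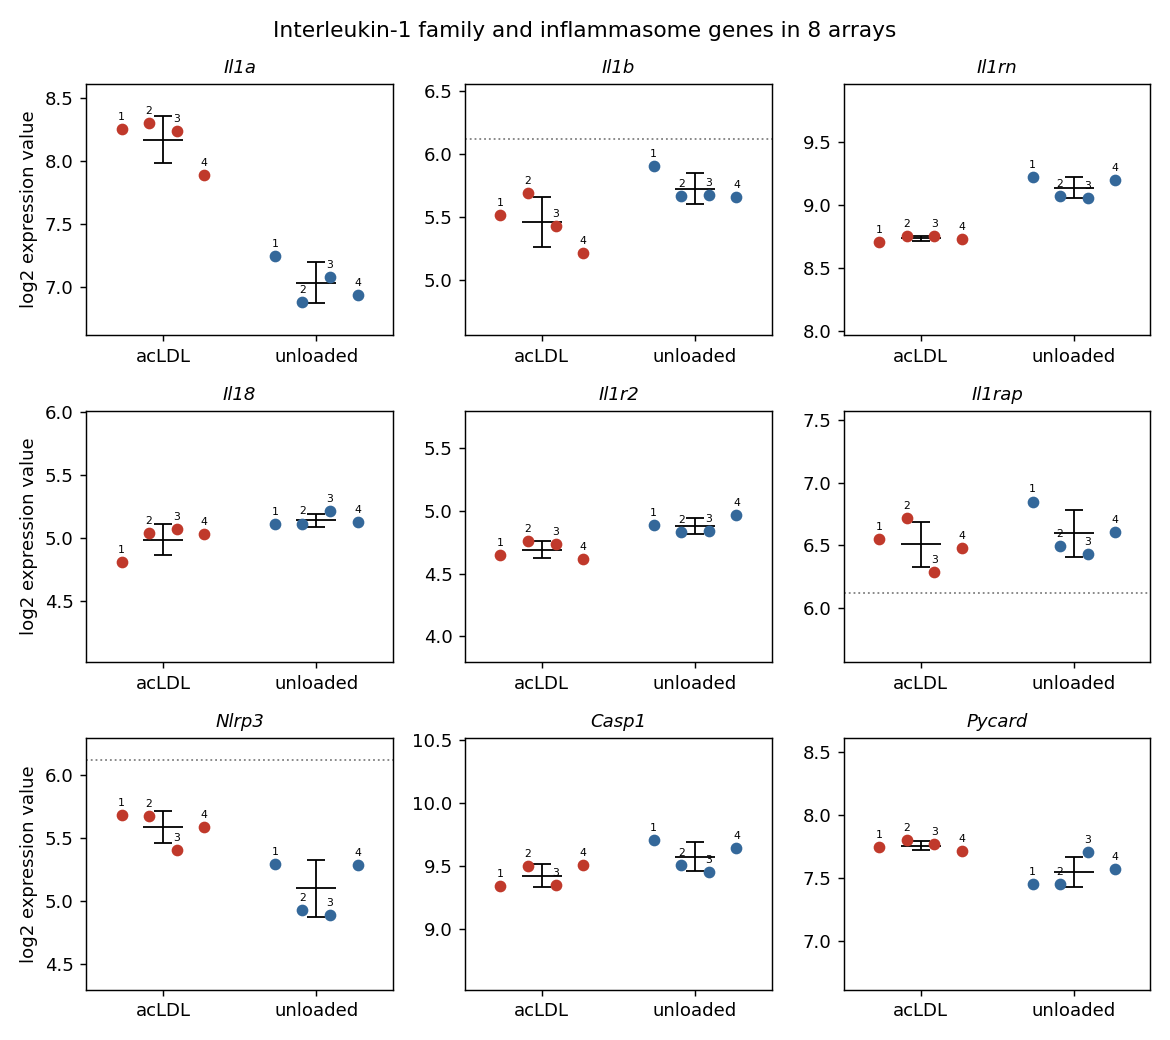
Log2 expression value of each measured gene in the 4 acLDL arrays (red, left) and the 4 unloaded arrays (blue, right), with the replicate number above each point, the mean (horizontal bar) and the SD (error bar). Every panel spans 2 log2 units, and the dotted line marks 6.12, the olfactory receptor 95th percentile, where it falls within a panel. Il1a stands apart by the widest margin, with acLDL arrays from 7.89 to 8.30 and unloaded arrays from 6.88 to 7.25.

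Among the ligands, Il1a rose and neither Il1b nor Il18 passed. Il1a, which encodes IL-1 alpha, had log2 values of 8.26, 8.30, 8.24 and 7.89 in acLDL arrays 1 to 4, against 7.25, 6.88, 7.08 and 6.94 in unloaded arrays 1 to 4. The lowest acLDL array lay 0.65 above the highest unloaded array, so the groups were well separated, although acLDL array 4 was lower than the other three. The mean was 8.17 ± 0.19 in acLDL and 7.04 ± 0.16 in unloaded cells (log2, SD, n = 4), a log2 difference of 1.14 ± 0.10 (SE) or 2.20-fold (limma adjusted p = 4.49e-06). This was the 20th largest rise of the 19938 genes. The call was kept in all 19 alternative settings, with log2 differences from 1.08 to 1.23.

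Il1b, the gene of IL-1 beta, stayed below the gauge of background in both groups. Its log2 values were 5.51, 5.69, 5.43 and 5.21 in acLDL arrays 1 to 4, against 5.91, 5.66, 5.68 and 5.66 in unloaded arrays 1 to 4. Acetylated LDL arrays 1, 3 and 4 lay below all unloaded arrays and array 2 lay among them. Its level exceeded that of 85.2% of the olfactory receptor genes in acLDL cells and of 87.5% in unloaded cells. The log2 difference was -0.26 ± 0.09 (SE; 95% interval -0.47 to -0.06), which did not pass (limma adjusted p = 0.0591). The call was gained without acLDL array 2 (log2 difference -0.34, limma adjusted p = 0.0193), after centring each array on its median (limma adjusted p = 0.0469) and with the replicate number as a block (limma adjusted p = 0.0367), and adjusted p over all alternative settings ran from 0.0193 to 0.200. Its interval lies below 0, whereas that of its neighbour Il1a runs from 0.92 to 1.35.

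Il18, the gene of the other caspase-1 substrate among these cytokines, also stayed below it. It had log2 values of 4.81, 5.04, 5.07 and 5.03 in acLDL arrays 1 to 4, against 5.11, 5.12, 5.22 and 5.13 in unloaded arrays 1 to 4. The groups did not overlap, by a margin of 0.04, but the log2 difference of -0.15 ± 0.07 (SE; 95% interval -0.31 to -0.0036) did not pass (limma adjusted p = 0.136). Without acLDL array 1, the lowest, the log2 difference was -0.09 (limma adjusted p = 0.367). The shift of the olfactory receptor median, -0.08, went the same way.

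The antagonist gene Il1rn fell, opposite to Il1a. It had log2 values of 8.71, 8.75, 8.75 and 8.73 in acLDL arrays 1 to 4, against 9.22, 9.07, 9.06 and 9.20 in unloaded arrays 1 to 4. The acLDL arrays were nearly level, and the highest of them was 0.31 below the lowest unloaded array. Means were 8.73 ± 0.021 in acLDL and 9.14 ± 0.08 in unloaded cells (log2, SD, n = 4), and the log2 difference was -0.40 ± 0.06 (SE), or 1.32-fold lower (limma adjusted p = 0.000384). The call was kept in all 19 alternative settings, with log2 differences from -0.47 to -0.33. Il1rn was read from 1 probe set, and which transcripts of the gene it covers was not examined. Secreted and intracellular forms of the antagonist were not measured separately.

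Of the receptor genes, Il1r2 fell by a small amount and Il1rap did not pass. Il1r2, the gene of the decoy receptor, had log2 values of 4.65, 4.76, 4.74 and 4.62 in acLDL arrays 1 to 4, against 4.88, 4.83, 4.84 and 4.97 in unloaded arrays 1 to 4. The groups did not overlap, by a margin of 0.07, and every value lay below 6.12. Its level exceeded that of 61.7% of the olfactory receptor genes in acLDL cells and of 65.0% in unloaded cells. The log2 difference was -0.19 ± 0.06 (SE; limma adjusted p = 0.0422), and it was lost when any 1 of 7 of the 8 arrays was left out (all but unloaded array 3), where adjusted p reached 0.120. Repeated quantile normalisation, median centring and cyclic loess also ended the call (0.103, 0.0616 and 0.0849). Of the 8285 genes with a mean level at or below 6.12, 8.94% were called, 3.36% higher and 5.59% lower.

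Il1rap, the gene of the accessory protein, showed no separation. Its log2 values were 6.55, 6.72, 6.29 and 6.48 in acLDL arrays 1 to 4, against 6.85, 6.50, 6.43 and 6.61 in unloaded arrays 1 to 4. The groups overlapped, and the log2 difference was -0.09 ± 0.10 (SE; 95% interval -0.30 to 0.13; limma adjusted p = 0.592).

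**Figure D2:**
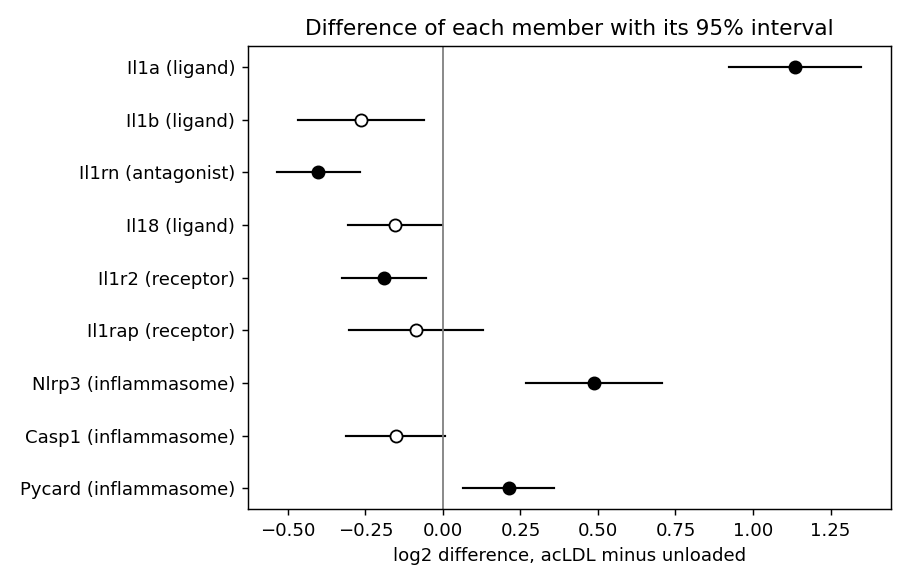
Log2 difference (acLDL minus unloaded) of each measured gene, with its 95% interval from limma, ordered by role. Filled points passed an adjusted p under 0.05 and open points did not. Il1a lies at 1.14 and Il1rn at -0.40, with Nlrp3 at 0.49.

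Among the inflammasome genes, the sensor and the adaptor rose and the caspase did not pass. Nlrp3 had log2 values of 5.68, 5.67, 5.40 and 5.59 in acLDL arrays 1 to 4, against 5.29, 4.92, 4.89 and 5.29 in unloaded arrays 1 to 4. All acLDL arrays lay above all unloaded arrays, by a margin of 0.11, and all 8 lay below 6.12. Its level exceeded that of 87.3% of the olfactory receptor genes in acLDL cells and of 71.8% in unloaded cells. Means were 5.59 ± 0.13 and 5.10 ± 0.22 in acLDL and unloaded cells (log2, SD, n = 4), and the log2 difference was 0.49 ± 0.10 (SE), or 1.40-fold (limma adjusted p = 0.00334). Unloaded arrays 1 and 4 were higher than unloaded arrays 2 and 3, and the difference was 0.68 without arrays 1 and 4 (adjusted p = 0.000350) and 0.29 without arrays 2 and 3 (adjusted p = 0.0290).

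Pycard had log2 values of 7.74, 7.80, 7.77 and 7.71 in acLDL arrays 1 to 4, against 7.45, 7.45, 7.70 and 7.57 in unloaded arrays 1 to 4. The groups did not overlap, but the lowest acLDL array was only 0.01 above the highest unloaded array, number 3. The log2 difference was 0.21 ± 0.07 (SE), or 1.16-fold (limma adjusted p = 0.0391). It was lost when any 1 of 7 of the 8 arrays was left out (all but unloaded array 3), where adjusted p reached 0.105. The same scalings ended it as for Il1r2, at 0.104 after quantile normalisation, 0.0675 after median centring and 0.0975 after cyclic loess.

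Casp1 had log2 values of 9.34, 9.50, 9.35 and 9.51 in acLDL arrays 1 to 4, against 9.71, 9.51, 9.45 and 9.65 in unloaded arrays 1 to 4. The groups overlapped, and the log2 difference of -0.15 ± 0.07 (SE; 95% interval -0.31 to 0.01) did not pass (limma adjusted p = 0.165). It was -0.05 without unloaded arrays 1 and 4 (adjusted p = 0.649) and -0.25 without unloaded arrays 2 and 3, where it passed (adjusted p = 0.0362).

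Unloaded arrays 1 and 4 both lay above unloaded arrays 2 and 3 in 5 of the 9 genes: Il1rn, Il1r2, Il1rap, Nlrp3 and Casp1. Over all genes 28.9% showed this order and 27.3% the opposite one. An earlier look at these data had set the pair apart, and no label ties it to a batch. The pairs also differed array-wide, with array medians of 6.44 and 6.45 in unloaded arrays 1 and 4 (log2). In unloaded arrays 2 and 3 the array medians were 6.52 and 6.54. The olfactory receptor medians were 4.43 and 4.43 in unloaded arrays 1 and 4, and 4.51 and 4.48 in unloaded arrays 2 and 3. Of the 5 called genes, Il1a, Il1rn and Nlrp3 passed whichever pair was left out, whereas Il1r2 and Pycard did not pass without arrays 1 and 4 (adjusted p = 0.158 and 0.132).

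**Figure D3:**
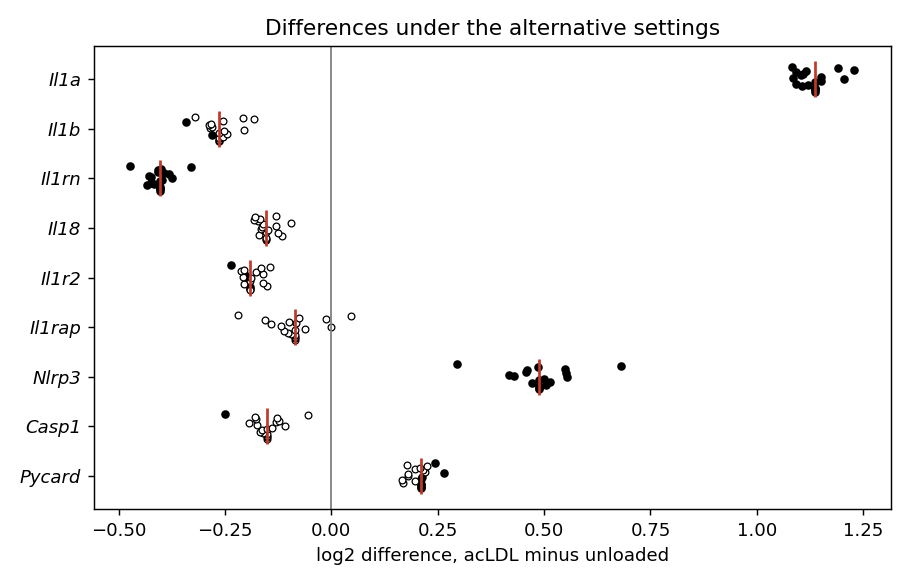
Log2 difference (acLDL minus unloaded) of each measured gene in the main analysis (red bar) and in each alternative setting (points, filled where the adjusted p was under 0.05). All points of Il1a, Il1rn and Nlrp3 are filled, 5 of 18 are filled for Il1r2 and 8 of 19 for Pycard.

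The other genes of the pathway, 53 of them measured, were described from 5 lists. In all, 11 rose, 8 fell and 34 did not pass, which is 35.8% called against 23.3% of all genes. Of the 53 genes, 38 lay above 6.12 and 15 at or below it. Among all genes, 33.5% of those above it and 8.94% of the rest were called. The background shares of 33.5% and 8.94% apply to each list below as well. After the filter on dim genes, 16 of the 38 were called, beside 4481 of all 11653 genes kept. The median log2 difference of the 53 genes was -0.05, and 2 of them changed by at least 1.5-fold, Ninj1 and Il1rl2. Of 6 other IL-1 family ligands, the IL-18 binding protein included, 1 fell and 5 did not pass. Il33, an alarmin of barrier and stromal cells, averaged 5.12 ± 0.08 in acLDL and 5.44 ± 0.19 in unloaded cells (log2, SD, n = 4; log2 difference -0.32, limma adjusted p = 0.0157), below 6.12 in both. The IL-36 ligand genes Il1f6, Il1f8 and Il1f9 were also below 6.12 in both groups.

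Of 6 other receptors of the family, 1 fell and 5 did not pass. The one that fell was Il1rl2, the receptor for the IL-36 cytokines, with log2 values of 6.52, 6.53, 6.45 and 6.52 in acLDL arrays 1 to 4, against 7.16, 6.91, 7.05 and 7.34 in unloaded arrays 1 to 4. The acLDL arrays were nearly level and all lay below the unloaded arrays. The log2 difference was -0.61 ± 0.08 (SE), or 1.53-fold lower (limma adjusted p = 0.000126). Sigirr, a dampening receptor of the family, differed by -0.07 and did not pass (limma adjusted p = 0.664).

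Of 9 inflammasome sensors other than NLRP3, 1 rose, 2 fell and 6 did not pass, and 6 of the 9 lay above 6.12. Aim2, a sensor of DNA in the cytosol, averaged 7.94 ± 0.14 in acLDL and 8.28 ± 0.13 in unloaded cells (log2, SD, n = 4), a log2 difference of -0.35 ± 0.08 (SE; limma adjusted p = 0.00927). Naip6, whose product recognises bacterial flagellin, fell by 0.29 (limma adjusted p = 0.00988). Its value is uncertain because the Naip genes are close copies of one another. Nlrp1a, a sensor whose close copy is Nlrp1b, rose by 0.21 (limma adjusted p = 0.0316). Its means were 6.21 in acLDL and 6.01 in unloaded cells (log2), on either side of 6.12. The call was lost in 9 alternative settings, among them median centring (0.0708) and the trended prior (0.0649). These 9 included 6 of the 8 single arrays left out, where limma adjusted p reached 0.0953. Nlrp3 and Aim2 thus changed in opposite directions, and all of these changes were under 1.5-fold.

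Of 15 upstream factors, inflammatory caspases and pore proteins, 4 rose, 1 fell and 10 did not pass, and 12 of the 15 lay above 6.12. The largest rise was in Ninj1, whose product ruptures the plasma membrane of dying cells, with log2 values of 10.91, 10.79, 10.78 and 10.77 in acLDL arrays 1 to 4, against 10.19, 10.02, 10.11 and 10.21 in unloaded arrays 1 to 4. The groups lay far apart, and the log2 difference was 0.68 ± 0.07 (SE), or 1.60-fold (limma adjusted p = 9.92e-06). Panx1, a channel that releases ATP, rose by 0.39 (limma adjusted p = 0.00402) and Gbp5, a guanylate-binding protein linked to NLRP3 assembly, by 0.28 (limma adjusted p = 0.00884), at levels below 6.12 in both groups. Txnip, a thioredoxin-binding protein linked to NLRP3 activation, fell by 0.34 (limma adjusted p = 0.00109). The fourth gene that rose was Gsdmd, the pore protein that caspase-1 cuts, by 0.25 (limma adjusted p = 0.0130), which falls outside the naming rule and was chosen after its value was seen. Casp4, the neighbour of Casp1, differed by 0.15 and did not pass (limma adjusted p = 0.241).

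Of 17 genes that carry or dampen the signal from the receptor to NF-kB, 6 rose, 3 fell and 8 did not pass. All 17 lay above 6.12, where 33.5% of all genes were called. Rela, a subunit of NF-kB, had log2 values of 9.27, 9.01, 9.12 and 9.06 in acLDL arrays 1 to 4, against 8.75, 8.67, 8.71 and 8.62 in unloaded arrays 1 to 4. Its groups did not overlap, and the log2 difference was 0.43 ± 0.07 (SE; limma adjusted p = 0.000512). Nfkbia, an inhibitor that NF-kB itself induces, rose by 0.42 (limma adjusted p = 0.00122), and the receptor-associated kinase gene Irak1 by 0.35 (limma adjusted p = 0.00287). Peli2, a ubiquitin ligase of the pathway, fell by 0.30 (limma adjusted p = 0.00469). The balance of all 53 genes depended on the scaling, with 11 higher and 8 lower as deposited, 7 and 8 after median centring, and 10 and 12 after repeated quantile normalisation and after cyclic loess.

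**Figure D4:**
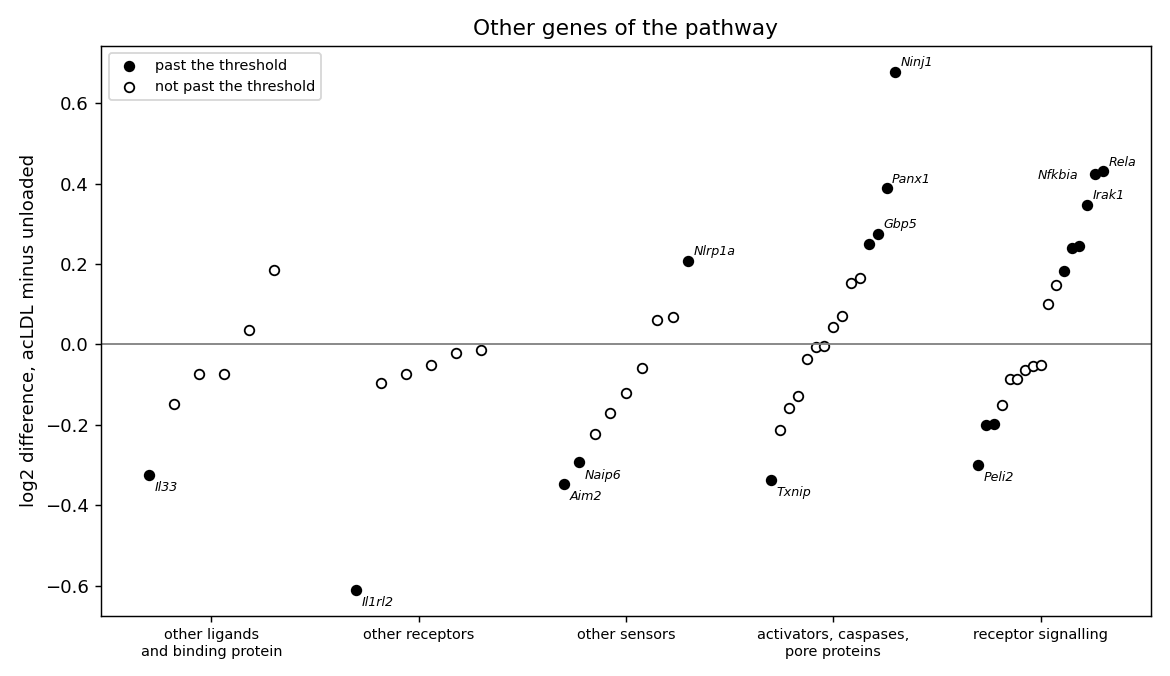
Log2 difference (acLDL minus unloaded) of 53 other genes of the pathway in 5 lists, each list sorted from lowest to highest. Filled points passed an adjusted p under 0.05, and the genes chosen by the naming rule are labelled. Il1rl2 is lowest at -0.61 and Ninj1 highest at 0.68.

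As a check of the labelled cell type, all 10 macrophage markers lay above 6.12, and 4 rose, 3 fell and 3 did not pass. Among all genes above 6.12, 33.5% were called. Fcgr1, an Fc receptor gene, rose by 0.71 (limma adjusted p = 9.57e-06), and the brightest, the lysosomal marker Cd68, differed by -0.09 (limma adjusted p = 0.324). Of 12 neutrophil markers, which matter because neutrophils express Il1b and Il1r2, 2 lay above 6.12, 3 fell and 9 did not pass. Their summed level ran from 9.24 to 9.30 in acLDL and from 9.28 to 9.37 in unloaded arrays (log2), and Ly6g, Retnlg, Mpo and Elane were below 6.12. The brightest, Csf3r, which macrophages also express, differed by 0.12 (limma adjusted p = 0.240), and Ly6g fell by 0.32 (limma adjusted p = 0.0130). The summed levels of the groups overlapped, 10 of the 12 differences were negative and 2 positive (Csf3r and Elane), and the median was -0.07. The part of these markers in the values of Il1b, Il1r2 and Il18 was not tested. Of 9 mesothelial and fibroblast markers 7 lay above 6.12, 2 fell and 7 did not pass, with summed levels of 11.94 to 12.08 in acLDL and 12.07 to 12.36 in unloaded arrays (log2). Dcn and Col1a2 fell by 0.26 (limma adjusted p = 0.0229) and 0.37 (limma adjusted p = 0.00366), whereas 5 of the 9 differences were positive, from 0.02 (Col1a1) to 0.14 (Wt1), none past the threshold, and the median of the list was 0.02. The part of these markers in the fall of Il33, a gene of such cells, was not tested.

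The remaining lists of other cells were mostly dim. Of 6 eosinophil markers 1 lay above 6.12 and 1 fell, Siglecf, by 0.60 (limma adjusted p = 8.99e-05), with summed levels of 8.47 to 8.58 in acLDL and 8.77 to 8.88 in unloaded arrays (log2). Siglecf was the brightest of them. Of the 6 differences 4 were negative and 2 positive (Epx and Ccr3), and their median was -0.05. Of 8 mast cell markers 2 lay above 6.12, Hdc and Tpsb2, and neither passed. The 2 that fell, Cma1 and Mrgprb1, lay below 6.12 in both groups. Cma1 fell by 0.27 (limma adjusted p = 0.00678), while the brightest, Hdc, differed by 0.14 (limma adjusted p = 0.427). Of the 8 differences 6 were negative and 2 positive. The summed levels of the 8 markers were 8.56 to 8.78 in acLDL and 8.66 to 8.77 in unloaded arrays. Of 5 B cell markers 1 lay above 6.12 and fell, Ighm, by 0.27 (limma adjusted p = 0.0252). The other 4 B cell differences were positive, none past the threshold, and the median of the list was 0.06. The summed level of these markers was 8.27 to 8.39 in acLDL and 8.24 to 8.53 in unloaded arrays. In limma 0 of 7 T and NK cell markers and 0 of 6 dendritic cell markers passed, and 0 in either list had an unadjusted p under 0.05. The brightest were Cd3e, which differed by -0.12 (limma adjusted p = 0.231), and Zbtb46, by 0.00 (limma adjusted p = 0.983), and Siglech had the smallest p among the dendritic cell markers (log2 difference -0.15, limma adjusted p = 0.157). The summed level of T and NK cell markers was 8.20 to 8.36 in acLDL and 8.28 to 8.44 in unloaded arrays, and that of dendritic cell markers was 8.57 to 8.67 in acLDL and 8.49 to 8.78 in unloaded arrays. Whether any of these lists had a part in the differences above was not tested.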

How the data were processed

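The submitters' processing notes name robust multi-array averaging (RMA), and the deposited values are log2 expression values of 35557 probe sets on 8 arrays. The sources used here do not give its version, its settings or the set of arrays normalised together. Differences of dim genes are compressed by this method. The platform annotation lists 23410 of the probe sets, 21789 with 1 gene symbol and 1621 with several, and the other 12147 are unnamed here. Symbols were updated by Entrez identifier through the RefSeq table of GRCm38.p6 (21698 matched, 0 changed). Each gene was represented by its brightest probe set with 1 symbol, which left 19938 genes, and the 9 measured members had 1 probe set each.

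Differences are acLDL minus unloaded, tested two-sided with limma 3.58.1 in R 4.3.3 (lmFit, eBayes), without a block, since no label ties equal replicate numbers. The fold call used 1.5-fold. The members and all gene lists were chosen with earlier results of these data known. Named genes are the members, up to 4 called genes with the smallest p in each of 5 pathway lists, and the brightest marker and that with the smallest p in each list of cell markers. Alternatives were a replicate block, other probe set choices, a filter on dim genes, 3 scalings, 2 variance or weight models, each array left out, and unloaded arrays left out in pairs. On simulated arrays of this comparison with 19938 genes and independent noise, 200 genes were given a change of 1.5-fold or more. Limma found 86% of the genes given a 1.5-fold change and 100% of those given 2-fold or more, with 11 false calls. In the data 4650 genes were called, many more than the 200 changed here, so these rates may not carry over to the data. Changes under 1.5-fold were not simulated. Promoter windows are RefSeq's (GRCm38.p6). Besides the motifs shown, an NF-kB-like motif was searched in the same windows and its matches were seen, but they are not reported here. Python 3.11.15 and matplotlib 3.10.9 made the figures. The number of arrays limits the precision.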

Additional observations from a re-analysis of the deposited data

Results flagged for a closer look

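In 9 of 70 groups of 4 arrays examined for the named genes, 1 array stood far from the other three (its gap to the nearest exceeded Dixon's 95% limit), which chance gives in about 1 of 20 groups. Among the members, Il1a was lowest in acLDL array 4 (7.89, next value 8.24) and Il18 was lowest in acLDL array 1 (4.81, next value 5.03). Il1b was highest in unloaded array 1 (5.91, next value 5.68), and Il18 was highest in unloaded array 3 (5.22, next value 5.13). Among the other pathway genes, Il1rl2 was lowest in acLDL array 3 (6.45), Ninj1 was highest in acLDL array 1 (10.91), and Gbp5 was lowest in unloaded array 2 (4.93). Among the markers, Zbtb46 was lowest in acLDL array 2 (6.35) and Cma1 was lowest in unloaded array 1 (5.68).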

How the results depend on the processing

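Over 19 alternative settings the number of called members ran from 3 to 6, beside 5 as reported. It was 3 after the filter on dim genes, which left 5 members, after cyclic loess, without unloaded arrays 1 and 4, and after quantile normalisation was repeated, and it ran from 3 to 5 with any single array left out. Il1a and Il1rn kept their calls in all 19 settings and Nlrp3 in all 18 that tested it, whereas Il1r2 lost its call in 13 of 18 and Pycard in 11 of 19. Il1rap turned in sign without unloaded arrays 1 and 4 (0.0455, limma adjusted p = 0.784), and the cause was not tested. The count over all genes ran from 3618 to 5160, beside 4650, and 6082 of all 23410 annotated probe sets were called. The count of the other pathway genes ran from 14 to 22, beside 19. The 13 pathway genes named kept sign and call in 233 of 244 gene and setting pairs and lost the call in 11, of which 9 were Nlrp1a.

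With the replicate number as a block, limma called 5 members, 20 other pathway genes and 4860 genes; Il1b passed (adjusted p = 0.0367) and Il1r2 did not (0.0657). Deviations of same-numbered arrays correlated across genes at 0.11, -0.16, 0.30 and 0.14 for numbers 1 to 4. Not every array correlated best with its own number. Whether same-numbered arrays share a preparation cannot be told from these correlations, and no label ties them. Levels below 6.12 (Il1b, Il18, Il1r2, Nlrp3) lie within background, where the sizes of differences may be understated. The negative differences of Il1b, Il18 and Il1r2 also go the same way as the olfactory receptor median, -0.08. After repeated quantile normalisation, Il18 differed by -0.11 (-0.15 as deposited) and Il1r2 by -0.15 (-0.19). Il1b then differed by -0.2556 (-0.2645) and Nlrp3 by 0.51 (0.49). The part of the background shift in these differences was not tested.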
